A study of Homo sapiens with 6 samples.

Results

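The genes described here code for 9 enzymes that make, recycle or remove the deoxynucleotides from which DNA is built. They were taken by symbol from the deposited gene table, which holds 16798 genes, and all 9 were present and passed the filter on low counts. Total RNA of COV434 cells, labelled WT, was sequenced in 3 control samples and in 3 samples treated with 4HC (4-hydroxycyclophosphamide). This is the active metabolite of the alkylating drug cyclophosphamide. The study describes COV434 as an immortalized human granulosa cell (GC) line. The labels give 15 µM 4HC for 24 h. All cells were kept in DMEM with fetal bovine serum, and no vehicle is named for the controls. The study asked how the transcriptome of a GC line responds to the drug, as a model of its toxicity to the ovary. COV434 is 1 cell line, and the sources do not say whether the 3 samples of a group were grown separately, so the p-values measure the spread between these samples, which may be technical.

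Expected counts of a sample summed to between 16133786 and 16702316. The defining markers of granulosa cells were mostly near 0. Of 14 granulosa markers, 12 were in the table and 3 reached 1 CPM (read counts scaled to 1e+06 per library). These were NR5A2, a nuclear receptor of granulosa cells, at 385 ± 9.81 CPM in control (SD, n = 3), HSD17B1, an estradiol-forming enzyme, at 14.1 ± 1.90 CPM, and AMH, the anti-Müllerian hormone, at 5.15 ± 1.36 CPM. FOXL2 was at 0 in 5 of 6 samples, and the FSH receptor gene FSHR and the aromatase gene CYP19A1 were at 0 in 4 of 6 samples. The granulosa label of the cells was therefore borne out by few of these markers. The summed level of the granulosa list was 397 to 418 CPM in control and 320 to 339 CPM in 4HC, nearly all of it NR5A2. Of the epithelial and the leukocyte markers, 2 in each list reached 1 CPM, and their summed levels stayed under 12 CPM. Of 10 stromal markers 5 reached 1 CPM, the highest being COL3A1, LUM and DCN at 281, 65.3 and 47.6 CPM in control. The summed level of the stromal list overlapped between the groups, at 386 to 408 CPM in control and 394 to 397 CPM in 4HC.

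DNA synthesis needs the 4 deoxynucleotides in balanced amounts. Ribonucleotide reductase makes them by reducing ribonucleotides, with a large catalytic subunit (RRM1) and a small radical-bearing subunit that is either RRM2, which is tied to S phase, or RRM2B, a known target of p53 that serves quiescent and damaged cells. Thymidylate is made de novo by thymidylate synthase (TYMS) or recovered from thymidine by thymidine kinase 1 (TK1), and deoxycytidine kinase (DCK) recovers other deoxynucleosides. DCTD deaminates dCMP to dUMP, the substrate of TYMS. DUT hydrolyses dUTP, which also yields dUMP and keeps uracil out of DNA, and SAMHD1 breaks deoxynucleoside triphosphates down to nucleosides.

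Sequences before a transcription start are shown for those genes that hold a CCAAT box or an E2F-type site (TTTNNCGC) there. Those that rose can thus be set beside SAMHD1, which did not. RefSeq promoter windows (GRCh38.p14, 250 bases before to 50 after a start) were found for 8 of the 9 genes, in 14 windows. RRM2B had no window and was not searched, so its absence below says nothing about its letters. 3 motifs were searched on both strands: the CCAAT box, the E2F-type site TTTNNCGC and the cell cycle element TTTGAA. Among all 35116 windows, 34.6% held CCAAT, 6.89% TTTNNCGC and 15.2% TTTGAA. Letters of CCAAT, or of TTTNNCGC in the TYMS and DUT stretches, are in capitals (on the reverse strand as ATTGG and GCGNNAAA), and each stretch reads 5′ to 3′ on the gene's strand.
RRM2 (chr2:10122600-10122738, plus strand): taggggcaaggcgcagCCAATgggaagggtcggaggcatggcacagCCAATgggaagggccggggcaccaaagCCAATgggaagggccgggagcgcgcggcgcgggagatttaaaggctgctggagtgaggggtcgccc
RRM1 (chr11:4094565-4094684, plus strand): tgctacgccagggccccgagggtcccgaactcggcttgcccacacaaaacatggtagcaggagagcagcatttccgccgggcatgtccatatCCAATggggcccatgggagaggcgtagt
TYMS (chr18:657513-657632, plus strand): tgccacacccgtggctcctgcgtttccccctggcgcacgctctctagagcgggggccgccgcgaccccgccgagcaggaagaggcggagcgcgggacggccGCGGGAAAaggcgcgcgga
TK1 (chr17:78187076-78187105, minus strand): gctcgtgATTGGccagcacgccgtggttta
SAMHD1 (chr20:36951732-36951761, minus strand): gaggCCAATaggctgCCAATactccttgga
DUT (chr15:48332151-48332180, plus strand): gctgGCGGGAAAtttcggtTTTGGCGCgct

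The RRM2 stretch lies directly upstream of the start of its shorter transcript and held CCAAT 3 times, beginning 123, 93 and 66 bases before that start, each time followed by the same letters GGGAAGGG. Windows with 3 or more CCAAT made up 3.26% of all windows. Those with 2 or more matches made up 10.8% for CCAAT, 0.558% for TTTNNCGC and 2.27% for TTTGAA. The TK1 window of the start at 78187052 held CCAAT 2 times, beginning 77 and 46 bases before that start. Only the nearer match lies in the stretch shown. The TK1 window of the start at 78187204 held none of the 3 motifs. The RRM1 window held CCAAT 1 time. SAMHD1 also held CCAAT 2 times, beginning 49 and 38 bases before its start, and its expression did not pass the test of a change. The E2F-type letters were found 1 time before the start of TYMS, 2 times before the most downstream start of DUT and 1 time after the start of DCK. TTTGAA was found, on the reverse strand, 1 time in the RRM1 window and 2 times in the same DUT window. The window of the longer RRM2 transcript held CCAAT 1 time, at its upstream edge. None of the 3 motifs was found in the windows of DCTD. These matches describe letters in the windows and are not measured binding sites.

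Of the 9 enzyme genes, 7 were higher in 4HC and 0 lower, with a p-value under 0.05 from edgeR's quasi-likelihood test after Benjamini-Hochberg adjustment over the whole table. In the same test 36.4% of 12368 genes passed in either direction, and 19.2% were higher in 4HC. The rises fell into 2 sizes. RRM2, RRM2B, RRM1, TK1 and TYMS rose by 47.6% to 78.5%, and DCK and DUT by 14.9% and 14.6%. SAMHD1 and DCTD did not pass the test, at unadjusted p-values of 0.30 and 0.52 (edgeR). The groups did not overlap for the 7 genes, beside 45.3% of all genes tested. CPM are shares of a library's counts, and in bulk RNA a higher share in each cell cannot be told apart from a higher number of cells in a given state.

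**Figure D1:**
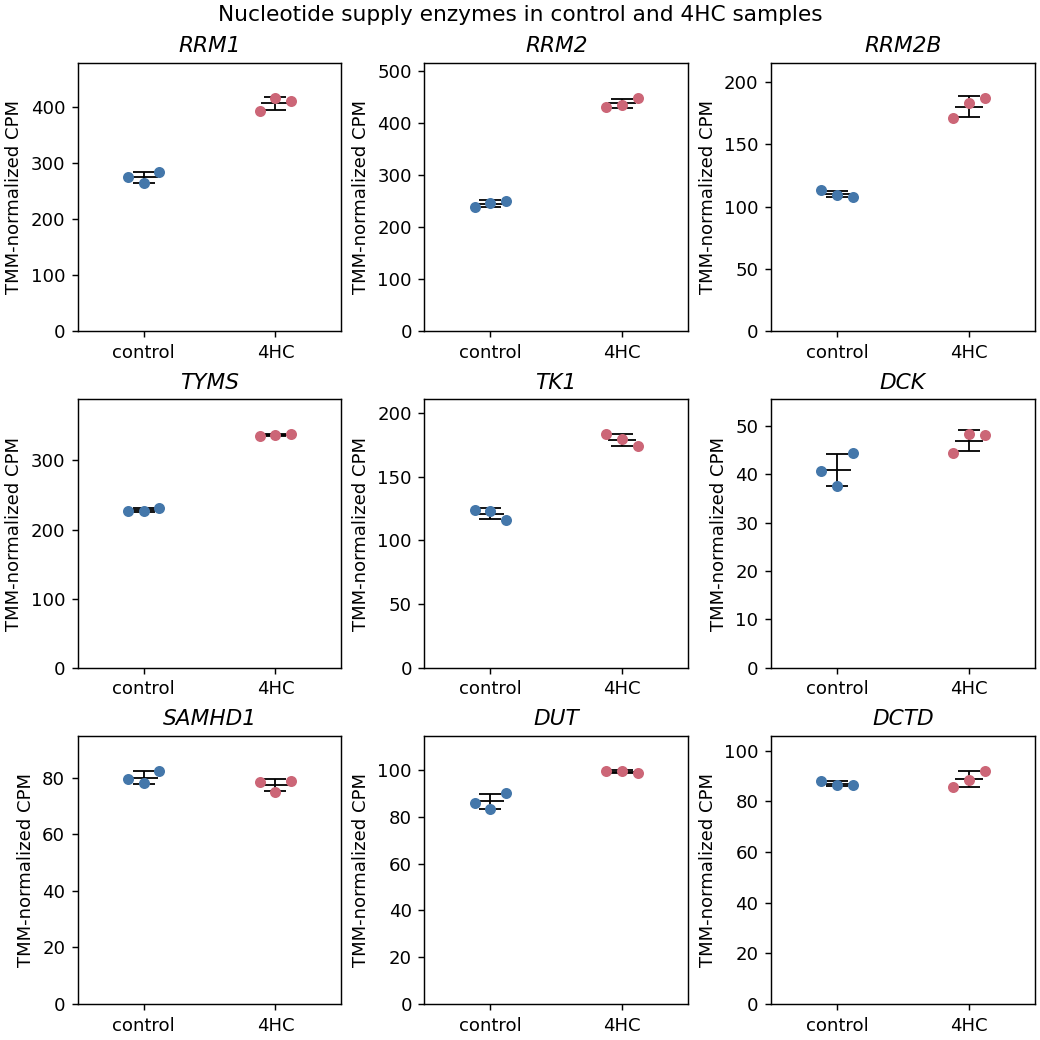
TMM-normalized CPM (vertical axes, each starting at 0) of the 9 enzyme genes in the 3 control and 3 4HC samples; points are samples, and bars are the mean ± SD. The groups are separate for 7 genes, narrowly so for DCK (highest control 44.3, lowest 4HC 44.4 CPM), and overlap for SAMHD1 and DCTD.

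RRM2, the S phase small subunit of ribonucleotide reductase (Gene ID 6241), rose most of the 9. It lies on chromosome 2, and the row of the table spans chr2:10081869-10211725, which also takes in the neighbouring locus C2orf48. Its TMM-normalized CPM were 238, 246 and 250.3 in the control samples and 429.6, 434 and 447 in the 4HC samples. Every 4HC sample was above every control sample by a distance far larger than the spread within a group. The log2 fold change was 0.84 ± 0.033 (SE; 95% interval 0.77 to 0.90; adjusted p = 3.5e-27, edgeR), or 1.78-fold. Of the 12368 genes tested, 194 had a larger log2 fold change.

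RRM1, the large subunit shared by both forms of the enzyme (Gene ID 6240; chr11:4094685-4141737), had 276, 265 and 284 CPM in control and 393, 417 and 411 CPM in 4HC. The groups were well apart. Its log2 fold change was 0.57 ± 0.034 (SE; adjusted p = 8.6e-20, edgeR), which is 1.48-fold.

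RRM2B, the p53-induced small subunit (Gene ID 50484; chr8:102204501-102238961), had 113, 109 and 108 CPM in control and 171, 183 and 187 CPM in 4HC. The 3 treated samples again lay above all controls. The log2 fold change was 0.71 ± 0.040 (SE; 95% interval 0.63 to 0.79; adjusted p = 4.7e-21, edgeR), or 1.64-fold, and 291 genes had a larger one.

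The 2 small subunits were then compared within each sample, where depth cancels. The log2 ratio of RRM2B to RRM2 was -1.07, -1.17 and -1.22 in control and -1.33, -1.25 and -1.26 in 4HC. The ratio was lower in all 3 treated samples, by a small amount. The mean difference was -0.13 on the log2 scale, so that the ratio in 4HC was 0.917 times that in control, with SDs of 0.073 and 0.045 within the groups. The exact permutation test over samples, two-sided, gave p = 0.1, the smallest that 3 against 3 samples allow, and 0.125 adjusted over the 5 pairs compared. In these samples the p53 target RRM2B thus rose by less than RRM2, at a p that this design cannot bring below 0.1. Leaving out each sample in turn moved the difference between -0.16 and -0.085, the value nearest 0 being that without control replicate 1.

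Levels of different genes were compared as TPM, which the authors scaled to transcript length. RRM2B was 38.3 ± 0.969 TPM in control and 62.4 ± 2.54 TPM in 4HC (SD, n = 3), beside 128 ± 3.62 and 227 ± 4.42 TPM for RRM2. RRM2B made up 23.1% ± 0.924 of the TPM of both small subunits in control and 21.5% ± 0.506 in 4HC. The small subunits together were at 166 ± 2.82 TPM in control and 289.9 ± 6.51 TPM in 4HC, and the large subunit at 151 ± 6.23 and 222 ± 5.14 TPM. Per large subunit there were 1.10 ± 0.038 small subunit transcripts in control and 1.31 ± 0.028 in 4HC.

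This gain came with differences in both subunit ratios. The log2 ratio of RRM2 to RRM1 was -0.17 ± 0.055 in control and 0.10 ± 0.037 in 4HC (difference 0.27, exact permutation p = 0.1, adjusted 0.125). That of RRM2B to RRM1 was -1.32 ± 0.067 and -1.18 ± 0.036 (difference 0.14, exact permutation p = 0.1, adjusted 0.125). In both pairs the 3 treated samples were above the 3 controls, and neither p could be smaller in this design.

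TYMS, which methylates dUMP to thymidylate (Gene ID 7298; chr18:657653-673578), had 227, 227 and 231 CPM in control and 336, 337 and 338 CPM in 4HC. The samples of a group were nearly equal and the groups far apart. The log2 fold change was 0.56 ± 0.033 (SE; adjusted p = 4.5e-20, edgeR). Antisense to it lie TYMSOS at its start and ENOSF1 at its end, and the strand setting of the counting is not given in the sources used here.

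TK1, the thymidine kinase of dividing cells (Gene ID 7083; chr17:78174079-78187204), had 124, 123 and 116 CPM in control and 183, 179.5 and 174 CPM in 4HC. All treated samples exceeded all controls. Its log2 fold change was 0.56 ± 0.039 (SE; adjusted p = 1.2e-17, edgeR). The log2 fold changes of the de novo and the salvage gene of thymidylate were both 0.56, and the log2 ratio of TYMS to TK1 was 0.92 ± 0.066 in control and 0.91 ± 0.042 in 4HC, overlapping between the groups (difference -0.0029, exact permutation p = 1, adjusted 1).

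DCK, the salvage kinase that also activates nucleoside drugs (Gene ID 1633; chr4:70992538-71030914), had 40.7, 37.7 and 44.3 CPM in control and 44.4, 48.3 and 48.2 CPM in 4HC. The lowest treated sample was barely above the highest control. The log2 fold change was 0.20 ± 0.057 (SE; 95% interval 0.085 to 0.31; adjusted p = 0.0045, edgeR). Without control replicate 2 it was 0.14 with an adjusted p of 0.067 (edgeR), so this call rests on that sample. DCK overlaps MOB1B on the same strand. The log2 ratio of TK1 to DCK went from 1.57 ± 0.16 in control to 1.93 ± 0.10 in 4HC without overlap (difference 0.36, exact permutation p = 0.1, adjusted 0.125).

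DUT, the dUTPase (Gene ID 1854; chr15:48321854-48362293), had 86.1, 83.6 and 90.2 CPM in control and 99.7, 99.5 and 98.7 CPM in 4HC. The groups were separate and the treated samples close together. Its log2 fold change was 0.20 ± 0.043 (SE; 95% interval 0.11 to 0.28; adjusted p = 2.0e-04, edgeR). GENCODE release 29 names 8 pseudogenes of DUT, 3 of RRM2 and 2 of TYMS, with which these genes may share reads.

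SAMHD1, the triphosphohydrolase (Gene ID 25939; chr20:36889773-36951708), had 79.6, 78.1 and 82.5 CPM in control and 78.6, 75.1 and 78.8 CPM in 4HC. The groups overlapped. Its log2 fold change was -0.05 ± 0.045 (SE; adjusted p = 0.44, edgeR), and its 95% interval of -0.14 to 0.043 leaves out changes of the size seen for the reductase. DCTD, the dCMP deaminase (Gene ID 1635; chr4:182890091-182917611), had 87.9, 86.5 and 86.5 CPM in control and 85.6, 88.3 and 92.0 CPM in 4HC. These groups overlapped too, with a log2 fold change of 0.03 ± 0.043 (SE; 95% interval -0.059 to 0.11; adjusted p = 0.65, edgeR).

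**Figure D2:**
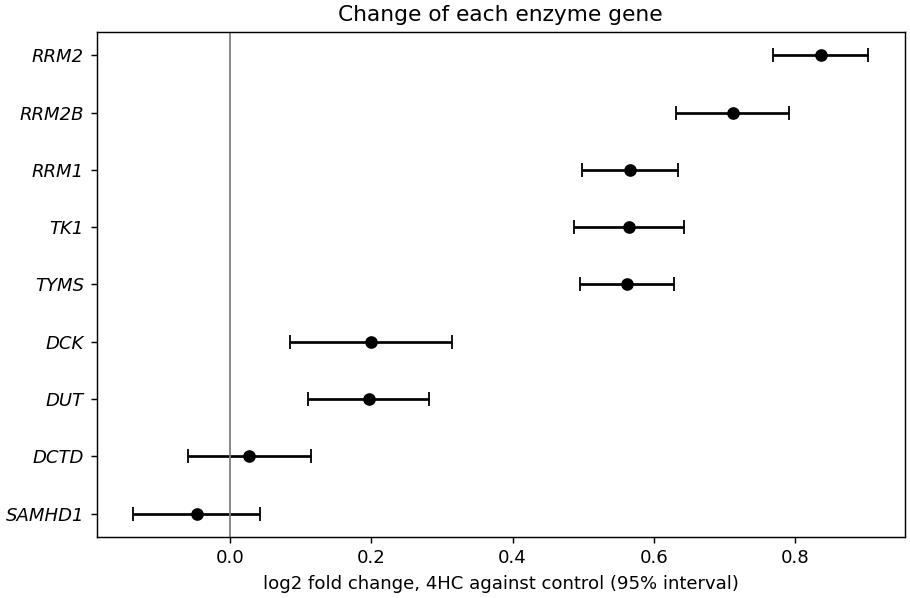
Log2 fold change of each enzyme gene in 4HC against control (horizontal axis) from the edgeR fit, with the 95% interval as bars. RRM2 and RRM2B lie highest at 0.84 and 0.71, RRM1, TK1 and TYMS at 0.56 to 0.57, DCK and DUT at 0.20, and the intervals of SAMHD1 and DCTD include 0.

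By TPM the order of levels in control was TYMS (269.7 ± 4.34), TK1 (163 ± 5.28), RRM1 (151 ± 6.23), RRM2 (128 ± 3.62), DUT (83.3 ± 3.75), DCTD (78.2 ± 0.945), RRM2B (38.3 ± 0.969), DCK (28.9 ± 2.56) and SAMHD1 (28.8 ± 0.783). DCK and SAMHD1 overlapped, and the neighbours TK1 and RRM1, like DUT and DCTD, were separated by less than 1 TPM between their nearest samples. In 4HC the levels ran from 395 ± 2.05 TPM for TYMS to 27.9 ± 0.728 TPM for SAMHD1. RRM2 (227 ± 4.42) and RRM1 (222 ± 5.14) then overlapped, while in control every RRM1 value was above every RRM2 value.

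The transcript table gave 41 transcripts of the 9 genes, of which 34 reached a mean of 10 counts in either group and 32 were tested. Of these 5 were called, all higher in 4HC, 1 each for RRM2, RRM1, RRM2B, TK1 and TYMS, beside 1.29% of 42216 transcripts tested. For RRM1 and TYMS the called transcript (NM_001033 and NM_001071) carried over 99% of the gene's counts in control (99.3% and 99.7%). For RRM2B it was NM_015713 with 88.5% ± 3.22 of the counts in control and 93.4% ± 0.933 in 4HC (exact permutation p = 0.1), and for TK1 NM_003258 with 89.5% ± 1.88 and 91.5% ± 1.12 (exact permutation p = 0.2). Without control replicate 1 the transcripts of RRM1 and RRM2B missed the threshold, both at an adjusted p of 0.05004 (edgeR), and that of TK1 missed it without control replicate 2 or any 1 of the 4HC replicates, at adjusted p-values of 0.051 to 0.068 (edgeR).

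RRM2 is listed with 2 transcripts that start at different sites, and their values parted. By RefSeq the longer one starts at 10122568 on chromosome 2 and the shorter one 171 bases further on, at 10122739, so that the 3 CCAAT boxes printed above lie between the starts. In GENCODE release 29 the longer transcript codes for 449 residues and the shorter for 389, and all 3271 bases of the shorter are contained in the longer, which has 163 more. The shorter (NM_001034) had expected counts of 3076, 3200, and 3381 in control and 6366, 6277 and 6413 in 4HC. The longer (NM_001165931) had 786, 803 and 768 in control and 751, 768 and 893 in 4HC. The shorter one was thus about doubled in every treated sample, and the longer one overlapped between the groups.

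The log2 fold change of the shorter RRM2 transcript was 0.98 ± 0.032 (SE; adjusted p = 7.6e-04, edgeR) and that of the longer was 0.03 ± 0.079 (SE; adjusted p = 0.99, edgeR). The share of the longer one in the gene's counts was 20.3%, 20.1% and 18.5% in control and 10.5%, 10.9% and 12.2% in 4HC. There were 3.91, 3.98 and 4.41 counts of the shorter per count of the longer in control, and 8.48, 8.17 and 7.18 in 4HC. The exact permutation test of the shares gave p = 0.1, the smallest possible. The split between these transcripts is an estimate that rests on reads over the 163 bases found only in the longer one.

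**Figure D3:**
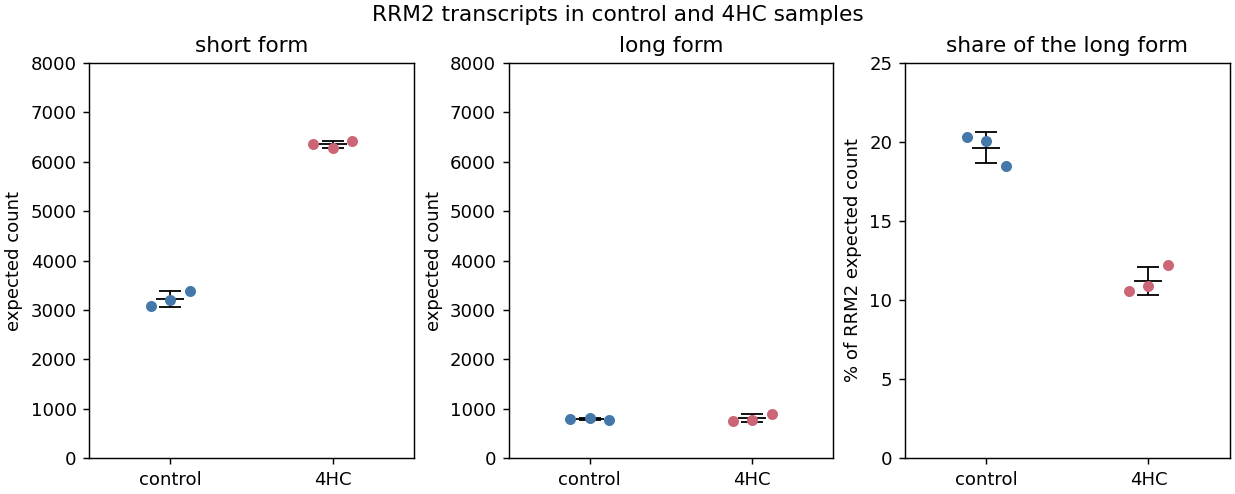
Expected counts of the shorter (NM_001034) and the longer (NM_001165931) RRM2 transcript on the same vertical scale, and the longer one's share of the gene's counts in percent, in the 3 control and 3 4HC samples; points are samples and bars are the mean ± SD. The shorter one goes from 3219 ± 154 to 6352 ± 69.2 counts, the longer from 786 ± 17.8 to 804 ± 77.6, and its share from 19.6% to 11.2%.

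DUT has a nuclear form (NM_001948) and a mitochondrial form (NM_001025248) with different starts. The nuclear form had 904, 802 and 873 counts in control and 987, 932 and 909 in 4HC, and the mitochondrial form 384, 436 and 473 in control and 512, 532 and 522 in 4HC. These counts are not scaled to depth, and for the nuclear form the lowest 4HC sample (909) was barely above the highest control (904). Neither form passed the test over all transcripts (log2 fold changes 0.13 and 0.28, adjusted p = 0.52 and 0.26, edgeR). The nuclear form's share was 60.7% ± 3.49 in control and 58.0% ± 1.68 in 4HC (exact permutation p = 0.4). The only transcript of DCK, NM_000788, had a log2 fold change of 0.20 as the gene did, with an adjusted p of 0.40 (edgeR) among all transcripts. Of the tested transcripts of DCTD (13) and SAMHD1 (3), 0 were called by edgeR or DESeq2, and 0 had an unadjusted p under 0.05. DCTD was spread over the most, with 44.2% ± 1.82 of its counts in control on NM_001012732.

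The other genes of the pathway moved in both directions. Of 94 genes in 7 lists 81 were tested, and 22 were higher and 15 lower in 4HC. Of all 12368 genes tested 36.4% were called, 2379 higher and 2118 lower, and the counts per list below are to be read beside these. Their median log2 fold change was 0.0088, and that of all genes tested 0.0047.

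In purine synthesis, 1 of 13 tested genes was higher and 6 were lower (median -0.089). The lower ones included ADSL (119 ± 2.24 to 104 ± 0.900 CPM, log2 fold change -0.19), PAICS (-0.17) and ADSS2 (-0.15), all steps towards IMP or AMP, and the higher one was ADSS1 (0.43) at 4.12 ± 0.292 CPM in control. Without control replicate 3 only 4 of these genes passed. ADSS2 was not called without that sample, and ADSS1 was not called without it or without 4HC replicate 1 or 2, with adjusted p-values of up to 0.088 and 0.086 (edgeR and the other settings). In pyrimidine synthesis 1 of 5 was higher, UMPS, which forms UMP (35.6 ± 1.07 to 40.3 ± 1.22 CPM, 0.18), and 1 lower, DHODH, the mitochondrial dihydroorotate dehydrogenase (28.5 ± 1.06 to 24.3 ± 1.47 CPM, -0.23). UMPS was not called without control replicate 3, without 4HC replicate 2, by DESeq2 or by limma on TPM (adjusted p of up to 0.075).

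The folate list supplies the methyl group that TYMS uses, and 5 of its 12 tested genes were higher and 2 lower (median 0.026). SHMT1, a serine hydroxymethyltransferase (49.8 ± 1.21 to 62.4 ± 1.45 CPM, 0.33), rose, as did GGH, a folylpolyglutamate hydrolase (0.23). The mitochondrial formate enzyme MTHFD1L (-0.25) and the folate carrier SLC19A1 (-0.20) fell. The log2 fold change of TYMS itself was 0.56.

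Among other salvage and transport genes 2 of 11 were higher, the uridine-cytidine kinase UCK1 (0.24) and the nucleoside transporter SLC29A1 (0.22), and 1 lower, UCK2 (-0.10), whose adjusted p of 0.046 (edgeR) lay just under the threshold. Of 14 nucleotide kinases 5 were higher and 3 lower (median -0.016). They included DTYMK, which phosphorylates thymidylate after TYMS or TK1 has made it (71.5 ± 1.61 to 90.0 ± 5.16 CPM, 0.33), AK1 (0.34) and NME1 (0.24), while NME6 (-0.16) and NME3 (-0.14) were lower. Leaving out control replicate 1, control replicate 2 or 4HC replicate 1 left 5 kinases called. NME6 and NME3 were lost with several samples left out or by DESeq2, with adjusted p-values of up to 0.25 and 0.056. NME1 has a near-identical neighbour, NME2, so its counts are uncertain.

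Of 18 tested genes for breakdown and for cleaning of the nucleotide pool 5 were higher and 2 lower (median 0.088). NUDT1, which hydrolyses oxidized purine nucleotides (35.0 ± 2.63 to 52.8 ± 2.71 CPM, 0.59), and the mitochondrial deoxyribonucleotidase NT5M (0.43) rose, and NUDT16 (-0.27) and NT5C (-0.20) fell. NT5C was lost without control replicate 2, without 4HC replicate 3 and by DESeq2, with an adjusted p of up to 0.13. Among 8 reductase partners 3 were higher and none lower. The thioredoxin TXN2 (103 ± 0.694 to 118 ± 3.83 CPM, 0.20) rose most. The thioredoxin TXN (0.13), which can return electrons to the reductase, was higher too. CCNF (0.14), a cyclin that marks RRM2 for degradation, was higher at an adjusted p of 0.049 (edgeR). TXN was lost without 4HC replicate 2 (adjusted p = 0.15, edgeR). CCNF passed in 3 and UCK2 in 3 of 15 alternative settings.

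Genes of p53 and of the cell cycle were measured beside the members, since RRM2B belongs to the p53 program and RRM2, TYMS and TK1 vary with cycle phase. These lists were chosen with earlier results of these data known, so their counts and medians are descriptions and not independent support. All 25 p53 targets tested were higher (median 0.88), among them GDF15 (6.71 ± 1.11 to 29.2 ± 1.34 CPM, 2.12), the CDK inhibitor CDKN1A (225 ± 7.25 to 783 ± 18.0 CPM, 1.80) and TP53I3 (1.57). The value of RRM2B, 0.71, was under the median of these targets. The summed level of the list was 3021 to 3059 CPM in control and 5496 to 5592 CPM in 4HC.

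Of 29 S phase genes 20 were higher and 1 lower (median 0.21). PCNA, the sliding clamp (275 ± 5.97 to 567 ± 6.82 CPM, 1.04), which is also a p53 target, the licensing factor CDT1 (40.7 ± 3.00 to 80.0 ± 2.26 CPM, 0.97) and GINS4 (0.64) rose most, and the helicase subunit MCM6 fell (-0.29). The sum of the list was 2762 to 2831 CPM in control and 3456 to 3497 CPM in 4HC. Of 20 genes of G2 and M phase 6 were higher and 9 lower (median -0.051), with falls of PLK1 (-0.73), CDC20 (-0.66) and CCNB1 (-0.57) and rises of CDC25C (0.31), KIF11 (0.26) and AURKB (0.26), and their sum overlapped between the groups. Log2 fold changes of RRM2, RRM1, TYMS and TK1 were all above the median of the S phase list. The part that phase or p53 had in the members' values was not tested.

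The genes whose pattern over the 6 samples was most like that of RRM2 were ASTN2, SESN1 and PRKAB1, with root mean square differences of 0.025, 0.035 and 0.045 in log2 CPM set to a control mean of 0, among 10364 genes compared. SESN1, a sestrin, is in the p53 target list and PRKAB1 codes for a subunit of AMP-activated kinase. ASTN2 went from 35.5 ± 0.973 to 62.7 ± 2.44 CPM and SESN1 from 89.0 ± 1.79 to 164 ± 1.77 CPM. Those most like RRM2B were TM7SF3, FANCI and BLVRB (0.028, 0.029 and 0.040), of which FANCI, a Fanconi anemia protein of crosslink repair, went from 111 ± 2.57 to 184 ± 3.03 CPM. With 2 groups such likeness mostly reads a similar fold change.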

How the data were processed

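RNA-seq of 3 control and 3 4HC samples of COV434 cells was used, with groups taken from the sample titles. The authors filtered reads with SOAPnuke and used the Dr. Tom system. The submitters' processing notes name HISAT2, Bowtie2, RSEM 1.3.1, DESeq2 1.4.5 and GRCh38.p13, without their roles. The deposited values are expected counts per gene and transcript, not normalized, of which 85.5% were whole for genes, and TPM and FPKM values scaled by the authors to length and depth. The deposited columns of the authors' own comparison (log2 fold changes and p-values) and a second table identical to part of the first were not used.

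Expected counts were rounded and tested over the whole table with edgeR 4.0.16 in R 4.3.3 (TMM, filterByExpr, quasi-likelihood test, condition as the only term, Benjamini-Hochberg adjustment), for genes and for transcripts. CPM are TMM-normalized, except those of the markers and of summed lists, which are scaled to the library total alone. Ratios, and transcript shares for the 2 most abundant transcripts of a gene, were compared with two-sided exact permutation tests. The fit was tested on simulated counts of 12286 genes for 4HC against control, where 84.8% of genes changed by 0.5 and 96.9% of those changed by 1 (log2) were recovered. The 9 members and all lists were chosen with earlier results of these data known. Within each list the 3 largest rises and falls with an adjusted p-value under 0.05 and at least 5 CPM in either group are named, with granulosa markers at 1 CPM or more, transcripts at 10 counts or more, and the 3 genes nearest in pattern to RRM2 and RRM2B. Genes whose call changed with a setting are named in addition. Some genes that this rule takes are not reported here.

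Alternatives were DESeq2 1.42.0, its size factors in edgeR, library size only, no filter, at least 10 counts in every sample, a replicate block, limma 3.58.1 on log2 TPM (pseudocounts 1 and 0.1) and log2 FPKM (1), and the removal of each sample. Promoter windows are from RefSeq (GRCh38.p14), and transcript models and pseudogenes from GENCODE release 29, which share the coordinates of GRCh38 with the files. Python 3.11.15 with pandas 2.3.3, scipy and matplotlib 3.10.9 was used. Replicates differed by more than sampling noise, at a chi-square of 1.70 to 2.46 per gene.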

Additional observations from a re-analysis of the deposited data

How the results depend on the processing

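The direction of each of the 7 called members was the same under all 15 alternatives. The call of 7 members was kept in each, apart from 6 without control replicate 2, where DCK was lost. Log2 fold changes of RRM2 ranged from 0.81 to 0.86 and of RRM2B from 0.68 to 0.74. The 5 ratios moved by less than the spread between replicates in every alternative, with RRM2B against RRM2 at -0.13 from TPM and FPKM. Pathway genes called numbered 27 to 37 and context genes 59 to 62. Of the 41 genes that the naming rule took from the lists, 32 were called in every alternative, and 9 (ADSS1, ADSS2, UMPS, UCK2, NME6, NME3, NT5C, CCNF and TXN) were lost in at least 1.

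Transcripts depended more on the settings. The 5 member transcripts called became 3 to 5 when 1 sample was left out, and all transcripts called went from 546 to between 58 and 127, and to 2961 with DESeq2. With the replicate number as a block (replicate block), 0 of 32 member transcripts and 0 of all were called by edgeR, although 6 and 3761 had an unadjusted p under 0.05 (DESeq2 without the block called 5 of the members'), with the shorter RRM2 transcript at 0.98 and an adjusted p of 0.086 (edgeR), while the same block left 7 member genes called and the difference of RRM2B against RRM2 at -0.13. Deviations of same-numbered samples correlated at 0.019 to 0.077, under the limit of 0.1, and not every sample correlated best with its own number. A batch shared by number was therefore not shown. This check cannot exclude one, since the deviations also hold counting error.

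Depth limits little for the members, whose lowest mean was 40.9 CPM, against a limit of 0.180 to 0.186 CPM for a count of 0, which covers counting error only. The medians of all genes stayed between -0.0067 and 0.025 under all scalings.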
